A study of Mus musculus with 4 samples.

Results

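Cells make cholesterol and fatty acids from the same precursor, acetyl-CoA, and the enzymes of both routes are controlled together by the sterol regulatory element-binding proteins (SREBPs). SREBP precursors are held in the endoplasmic reticulum by the escort Scap and the anchor Insig, and are cut in the Golgi when membrane sterol falls, so that the freed part can enter the nucleus and switch on the genes of these routes. In macrophages, which take up lipoproteins and dead cells, this synthesis is known to be turned down when the cell is loaded with sterol and to be tuned during inflammatory activation. The 30 genes described here were chosen by name from the textbook pathway, with earlier results of these data known. They come from 24422 named genes in the deposited tables. They hold 18 genes of the sterol synthesis arm, 7 of the fatty acid arm, and 5 that regulate SREBP or carry sterol. For each gene the RefSeq transcript with the highest mean read count was used. All 30 genes were found and all 30 passed the filter on low counts, with between 183 and 53199 reads in each library.

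The series comprised 4 poly(A) RNA sequencing libraries of RAW 264.7, a mouse macrophage line, and its title concerns the function in macrophages of Dnm3os, a long noncoding RNA that it calls induced by diabetes. In 2 libraries the cells stably expressed Dnm3os from the plasmid pcDNA 3.1(+), and in 2 they stably carried that plasmid empty. All cells were at passages 3 to 6 in DMEM with 5.5 mmol/L glucose and 10% serum, and no stimulus or lipid loading is named. The labels do not say whether the lines were single clones or pools, or if a group's libraries are separate cultures, so p-values measure only the spread between these libraries, which may be technical.

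Summed reads with 1 transcript per gene ranged from 29329201 to 34207328 in the Dnm3os libraries and from 35328398 to 39640782 in the empty vector libraries. Dnm3os had 208 and 260 reads in the Dnm3os libraries, against 0 and 0 in the empty vector libraries. All 6 macrophage markers examined were detected, and they did not move together: by edgeR 3 were higher in the Dnm3os libraries (Csf1r, Lyz2 and Itgam), 2 were lower (Cd68 and Adgre1) and Ptprc did not pass. Their summed level, most of it Lyz2, was 9400 to 9907 CPM (read counts scaled to library size with edgeR's TMM factors) in the Dnm3os libraries and 8552 to 8705 CPM in the empty vector libraries. Itgam, an integrin subunit, averaged 291 CPM in the Dnm3os libraries and 145 CPM in the empty vector libraries, and Adgre1, the F4/80 antigen, averaged 75.8 CPM in the Dnm3os libraries and 93.6 CPM in the empty vector libraries. Markers of adipocytes, cells that make much fatty acid, were at 0 reads for all 4 genes in all 4 libraries. Of 4 hepatocyte markers 3 were at 0 reads, and the summed level was 1.57 to 1.73 CPM in the Dnm3os libraries and 1.70 to 1.96 CPM in the empty vector libraries. Of 4 fibroblast markers 2 were at 0 reads in all libraries, with a summed level of 0 CPM in both Dnm3os libraries and at most 0.0503 CPM in the empty vector libraries. The part of these marker differences in the values below was not tested.

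Sequence upstream of the members is shown first because SREBP acts there, together with the CCAAT-binding factor NF-Y. Windows of 250 bases before the annotated start were taken from the RefSeq promoter table of build GRCm38.p6, which covers 24 of the 30 members and not Fdps, Fdft1, Sqle, Stard4, Scd1 or Scd2. The windows were searched on both strands for the sterol regulatory element TCACNCCAC, the box CCAAT and the E-box CACGTG. The 5 windows below belong to the 3 members that passed the test for a difference, to Hmgcs1, whose window alone among the members held the sterol element, and to Fasn, whose fitted change was the most negative. Capitals mark motif matches, and ATTGG is CCAAT read on the other strand. The build differs from mm9, which the submitters' processing notes name for the reads.
Idi1 (chr13:8885356-8885605, plus strand): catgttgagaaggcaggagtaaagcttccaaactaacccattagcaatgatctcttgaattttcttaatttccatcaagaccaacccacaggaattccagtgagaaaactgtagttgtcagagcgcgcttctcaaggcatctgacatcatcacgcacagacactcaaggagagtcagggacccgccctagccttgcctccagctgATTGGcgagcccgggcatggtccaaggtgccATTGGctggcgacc
Dhcr7 (chr7:143822917-143823166, plus strand): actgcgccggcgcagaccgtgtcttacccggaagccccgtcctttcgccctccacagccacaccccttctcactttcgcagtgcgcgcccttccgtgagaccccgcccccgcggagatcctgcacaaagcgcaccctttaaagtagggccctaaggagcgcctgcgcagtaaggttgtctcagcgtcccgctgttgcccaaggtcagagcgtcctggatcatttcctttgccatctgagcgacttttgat
Elovl6 (chr3:129532136-129532385, plus strand): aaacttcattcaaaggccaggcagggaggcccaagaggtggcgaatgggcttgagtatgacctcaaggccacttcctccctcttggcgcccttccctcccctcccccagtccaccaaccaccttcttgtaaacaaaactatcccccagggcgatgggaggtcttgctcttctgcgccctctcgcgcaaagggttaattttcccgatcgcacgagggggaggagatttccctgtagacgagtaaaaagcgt
Hmgcs1 (chr13:119690101-119690350, plus strand): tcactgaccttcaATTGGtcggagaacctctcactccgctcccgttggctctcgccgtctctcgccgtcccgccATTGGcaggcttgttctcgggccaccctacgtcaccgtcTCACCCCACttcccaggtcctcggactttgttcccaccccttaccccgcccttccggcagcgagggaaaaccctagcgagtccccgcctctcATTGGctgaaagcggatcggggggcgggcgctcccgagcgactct
Fasn (chr11:120824548-120824797, minus strand): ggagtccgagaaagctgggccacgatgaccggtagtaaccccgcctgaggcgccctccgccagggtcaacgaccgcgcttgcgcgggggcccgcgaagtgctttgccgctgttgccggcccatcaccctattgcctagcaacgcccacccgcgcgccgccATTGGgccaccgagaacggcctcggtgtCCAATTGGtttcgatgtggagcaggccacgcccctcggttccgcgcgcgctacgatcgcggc
The Hmgcs1 window holds 1 sterol element, whose first base lies 137 bases before the start annotated for that window, and 3 CCAAT boxes. Idi1 has 2 CCAAT boxes, the nearer one beginning 14 bases before its window's start, and Fasn has 3, of which one pair overlaps as a palindrome. The windows shown for Dhcr7 and Elovl6 hold none of the motifs searched. Dhcr7 has 3 windows, of which the one beginning at chr7:143823149 holds 1 E-box. The one beginning at chr7:143829964 holds 2 CCAAT boxes. Dhcr7 is counted below for both motifs only through these windows that are not shown. The windows of Dhcr7, Elovl6 and Fasn end at the start of the counted transcript, whereas the annotated start of the Hmgcs1 window lies 113 bases upstream of it and that of the Idi1 window 105 bases downstream of it. CCAAT was found in at least 1 window of 14 of 15 sterol arm genes, 3 of 4 regulators and 2 of 5 fatty acid arm genes, against 41.39% of the 10100 tested genes with a window and 33.85% of all 32851 windows. The exact sterol element was found in 1 of 15 sterol arm genes, in 0 of 4 regulators and in 0 of 5 fatty acid arm genes, against 1.22% of the tested genes with a window and 1.05% of all windows. The E-box was found in 3 of 15 sterol arm genes, 2 of 4 regulators and 0 of 5 fatty acid arm genes, against 9.87% of tested genes with a window and 6.02% of all windows. These matches describe letters in a window and no binding.

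The genes of both routes were well expressed in the cells of both groups, and their levels differed far more between genes than between the groups. Levels of different genes are compared in this paragraph as CPM per kb of transcript, with lengths of the matching GENCODE transcripts. In the sterol arm, Fdps, the farnesyl diphosphate synthase that also supplies protein prenylation, was highest at 392 CPM per kb in the Dnm3os libraries and 379 CPM per kb in the empty vector libraries (group means). Tm7sf2, a sterol reductase, was lowest at 4.34 CPM per kb in the Dnm3os libraries and 3.65 CPM per kb in the empty vector libraries. In the fatty acid arm, Scd2, a stearoyl-CoA desaturase, was highest at 245 CPM per kb in the Dnm3os libraries and 246 CPM per kb in the empty vector libraries. Acss2, which makes acetyl-CoA from acetate, was lowest there at 6.21 CPM per kb in the Dnm3os libraries and 5.70 CPM per kb in the empty vector libraries. Highest and lowest genes thus lay 96.5-fold apart in the sterol arm and 41.2-fold apart in the fatty acid arm, over the mean of the 4 libraries, whereas the regulators spanned 4.24-fold from Stard4 to Srebf2.

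**Figure D1:**
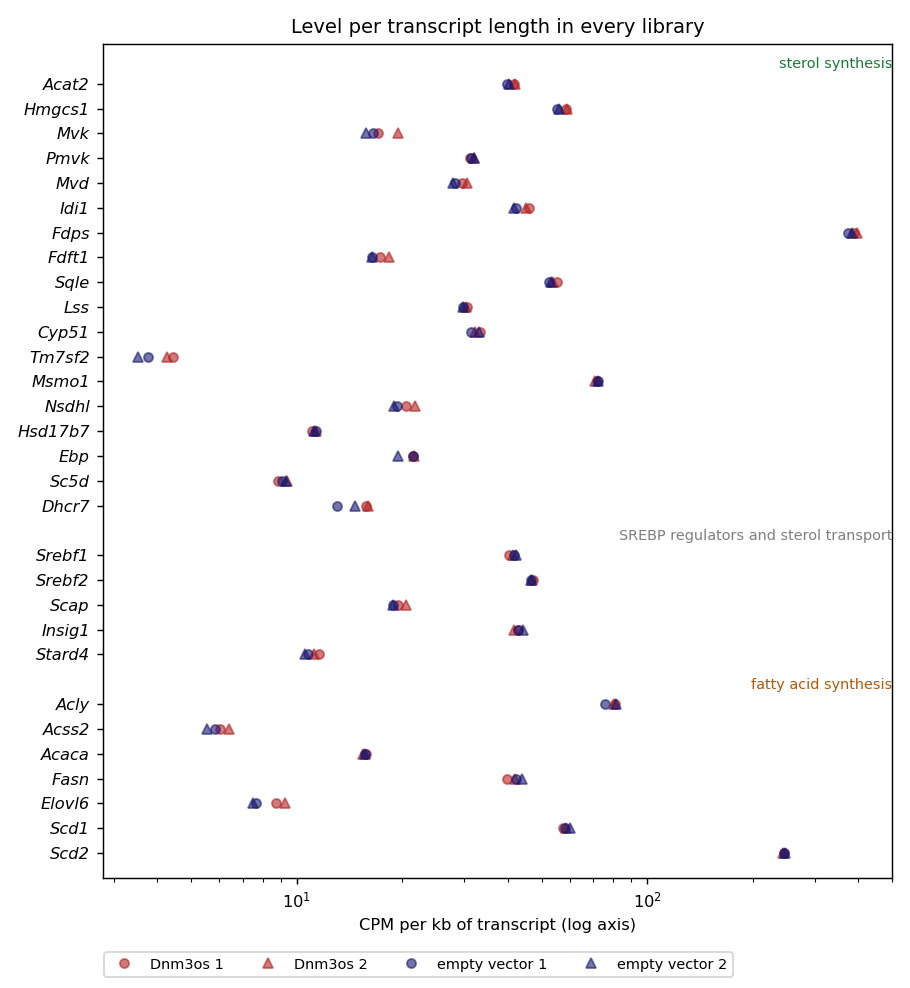
Level of each of the 30 genes in every library, as CPM per kb of transcript on a log axis, with Dnm3os libraries in red and empty vector libraries in dark blue. The 4 libraries of a gene lie close together, while genes of the sterol arm lie up to 96.5-fold apart.

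Of the 30 genes, 3 were higher in the Dnm3os libraries, 0 were lower and 27 did not pass the test (quasi-likelihood test of edgeR, two-sided, called at a Benjamini-Hochberg adjusted p under 0.05 over 13136 genes). Thus 10.0% of the members were called, against 12.2% of all genes tested, of which 6.48% were higher and 5.77% lower. The members' share was near the background. Among the 9675 genes with a mean CPM between the lowest and the highest member, 13.4% were called. No member was called lower by DESeq2 or limma-voom either. At an unadjusted p under 0.05 edgeR had 11 of the 30 members, 10 higher and 1 lower. Of all 13136 genes it had 3050 at that cut, or 23.2%, with 1586 higher and 1464 lower. The members at this cut thus lay mostly on the higher side, whereas all genes were split nearly evenly. As these are bulk libraries, more RNA per cell and more cells making it cannot be told apart. The members that rose were Idi1 and Dhcr7 of the sterol arm and Elovl6 of the fatty acid arm.

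Idi1 makes dimethylallyl diphosphate, the primer of isoprenoid chains. It had 139 and 137 CPM in the Dnm3os libraries, against 128 and 126 CPM in the empty vector libraries. Both Dnm3os libraries were higher than both empty vector libraries, by more than the libraries of a group differed. The means were 138 ± 1.32 CPM in Dnm3os and 127 ± 1.47 CPM in empty vector cells (SD, n = 2 each), a log2 fold change of 0.12 ± 0.03 (SE) or 1.09-fold, with adjusted p = 0.0146 by edgeR.

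Dhcr7 catalyses the last reduction of cholesterol synthesis, from dehydrocholesterol. Its level was 44.2 and 45.0 CPM in the Dnm3os libraries, against 36.7 and 41.1 CPM in the empty vector libraries. The groups did not overlap, although the empty vector libraries lay further apart from each other than the Dnm3os libraries did. The fitted log2 fold change was 0.20 ± 0.06 (SE), or 1.15-fold (adjusted p = 0.0236 by edgeR), and without empty vector library 1 it was 0.11 (adjusted p = 0.380 by edgeR). Neither Idi1 nor Dhcr7 was called by DESeq2, with isoforms summed, or without Dnm3os library 1 or Dnm3os library 2. Idi1 was also lost without empty vector library 2, while both were called under 9 of 14 alternatives. Idi1 and Dhcr7 have 1 transcript each in the counts, so summing isoforms left their own reads unchanged and altered only the other genes of the fit.

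Elovl6 lengthens palmitate to stearate and acts between the fatty acid synthase and the desaturases. It measured 51.8 and 55.0 CPM in the Dnm3os libraries, against 45.5 and 44.7 CPM in the empty vector libraries. The Dnm3os libraries were both higher, and the gap between groups exceeded the gap within either. This was the largest change among the members by p and the second by size, with a log2 fold change of 0.24 ± 0.05 (SE), or 1.18-fold with a 95% interval of 1.10 to 1.27 (adjusted p = 0.00119 by edgeR). It was called under 13 of 14 alternatives and lost without Dnm3os library 2 (log2 fold change 0.20, adjusted p = 0.0765 by edgeR).

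**Figure D2:**
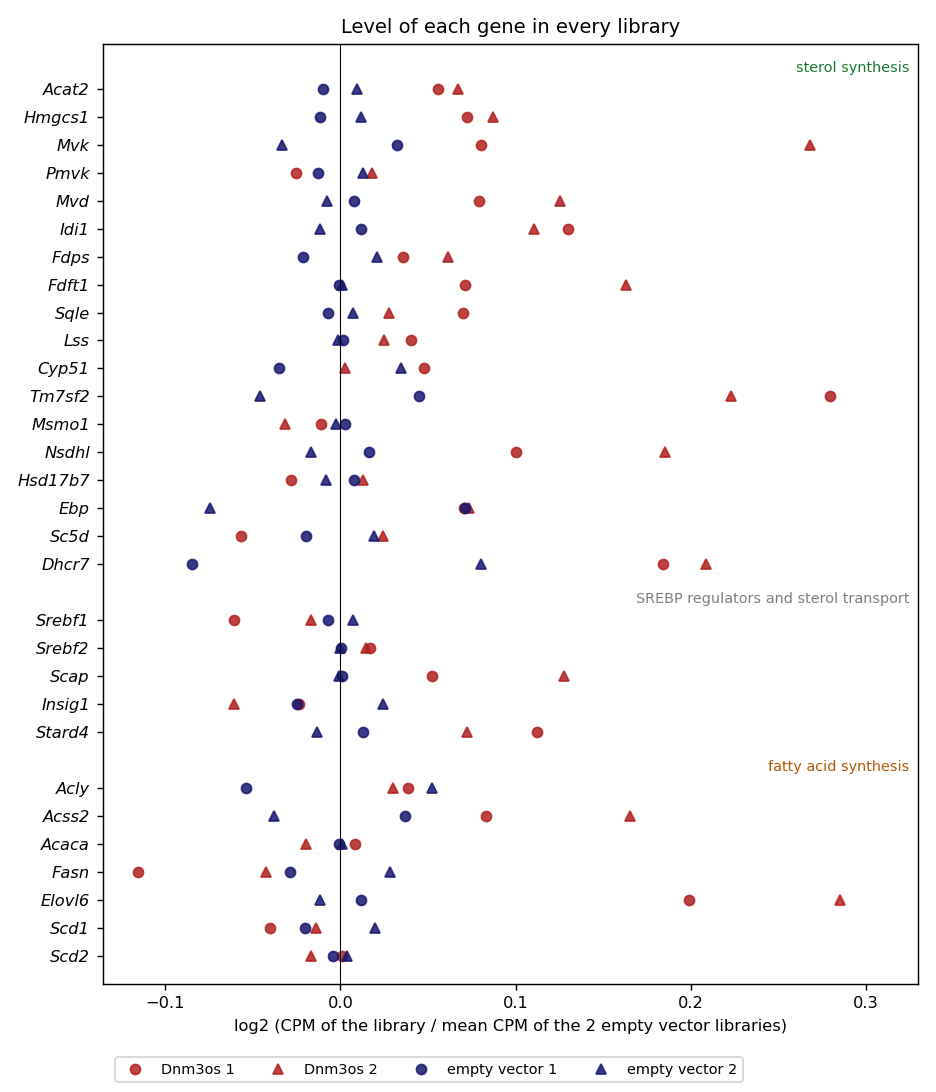
Each library's CPM over the mean CPM of the empty vector libraries, as log2, for all 30 genes. Red points (Dnm3os) lie right of both dark blue points (empty vector) for 12 of the 18 sterol arm genes and for 2 of the 7 fatty acid arm genes. Over all genes tested this held for 26.2%. Red points lie left of both dark blue points for 1 gene in each of these arms, against 25% of all genes tested. The differences are small.

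In the sterol arm Idi1 and Dhcr7 rose, 0 of the 18 genes fell and 16 missed the threshold. The share called was 11.1%, near the 12.2% of all genes tested. No sterol gene was called lower by DESeq2 or limma-voom either, with 0 each at an adjusted p under 0.05. At an unadjusted p under 0.05 edgeR had 8 of the 18 genes higher and 0 lower. Over all 13136 genes tested, 1586 were higher and 1464 lower at that cut, together 23.2%. The fitted log2 fold change was above 0 for 14 of the 18 genes, and its median was 0.066, against a median of 0.0005 and 50.2% above 0 over all genes tested. The arm's median stayed between 0.055 and 0.071 under the 14 alternatives, scalings included. For 12 of the 18 genes both Dnm3os libraries were higher than both empty vector libraries and for 1 both were lower, together 72.2% without overlap. Over all genes tested 51.2% did not overlap, with 26.2% higher and 25% lower in this way. These counts describe the list and are no test of it.

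Along the mevalonate steps, from acetyl-CoA to farnesyl diphosphate, 1 of 7 genes was called (Idi1, higher), against 12.2% of all genes tested. The fitted change was above 0 for 6, against 50.2% of all genes tested. Hmgcs1, the cytosolic HMG-CoA synthase, had 203 and 205 CPM in the Dnm3os libraries, against 191 and 195 CPM in the empty vector libraries. Mvk, the mevalonate kinase, had 27.3 and 31.1 CPM in the Dnm3os libraries, against 26.4 and 25.2 CPM in the empty vector libraries. Neither passed the test, with adjusted p = 0.108 and 0.0920 by edgeR and log2 fold changes of 0.08 ± 0.03 and 0.18 ± 0.07 (SE) for Hmgcs1 and Mvk in that order, though neither gene's groups overlapped. Mvk reached adjusted p = 0.0446 by edgeR without Dnm3os library 1, at a log2 fold change of 0.27, whereas without Dnm3os library 2 its log2 fold change was 0.08 (adjusted p = 0.646 by edgeR).

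Mvd, which decarboxylates mevalonate diphosphate, had 54.3 and 56.1 CPM in the Dnm3os libraries, against 51.7 and 51.1 CPM in the empty vector libraries (adjusted p = 0.167 by edgeR). Its counted transcript is a noncoding RefSeq variant whose reads nearly all recur in the coding one. Acat2, the thiolase that joins acetyl-CoA units in the cytosol, had 93.8 and 94.6 CPM in the Dnm3os libraries, against 89.7 and 90.9 CPM in the empty vector libraries (adjusted p = 0.337 by edgeR). Fdps had 537 and 546 CPM in the Dnm3os libraries, against 516 and 531 CPM in the empty vector libraries (adjusted p = 0.340 by edgeR). In Mvd, Acat2 and Fdps the Dnm3os libraries were thus both above the empty vector libraries by a few percent, without passing the test. Pmvk, the phosphomevalonate kinase, overlapped between the groups, with 37.2 and 38.3 CPM in the Dnm3os libraries, against 37.5 and 38.2 CPM in the empty vector libraries.

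From farnesyl diphosphate to lanosterol, 0 of 3 genes were called by edgeR, DESeq2 or limma-voom, against 12.2% of all genes tested by edgeR. By edgeR 1 had an unadjusted p under 0.05, against 23.2% of all genes tested. All 3 had groups without overlap, higher in Dnm3os, against 26.2% of all genes tested. Fdft1, the squalene synthase that commits farnesyl units to sterol, had 63.7 and 67.9 CPM in the Dnm3os libraries, against 60.6 and 60.7 CPM in the empty vector libraries (log2 fold change 0.12 ± 0.04 SE, adjusted p = 0.0842 by edgeR). Sqle, the squalene epoxidase and a control point of the route, had 153 and 148 CPM in the Dnm3os libraries, against 145 and 146 CPM in the empty vector libraries (adjusted p = 0.393 by edgeR). Lss, which closes the rings of lanosterol, had 143 and 141 CPM in the Dnm3os libraries, against 139 and 139 CPM in the empty vector libraries (adjusted p = 0.614 by edgeR). The 95% intervals of Sqle and Lss reached no further than 1.08-fold and 1.07-fold higher and included no change.

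Of the 8 genes that turn lanosterol into cholesterol, Dhcr7 rose and 7 did not pass, so 1 was called, against 12.2% of all genes tested. Nsdhl, a dehydrogenase that removes a carboxyl group from the ring, had 44.5 and 47.2 CPM in the Dnm3os libraries, against 42.0 and 41.1 CPM in the empty vector libraries (log2 fold change 0.14 ± 0.05 SE, adjusted p = 0.0752 by edgeR). Tm7sf2 had 6.51 and 6.26 CPM in the Dnm3os libraries, against 5.53 and 5.20 CPM in the empty vector libraries. With 183 to 220 reads a library it was the shallowest member and had the widest interval, from 1.01 to 1.40-fold (adjusted p = 0.189 by edgeR). Msmo1, the methylsterol monooxygenase, was the sterol arm gene with both Dnm3os libraries lower, at 147 and 145 CPM, against 148 and 148 CPM in the empty vector libraries (adjusted p = 0.757 by edgeR). Cyp51, the lanosterol demethylase, Hsd17b7, a ketosteroid reductase, Ebp, a sterol isomerase, and Sc5d, a sterol desaturase, overlapped between the groups, with log2 fold changes of 0.03 ± 0.03, -0.01 ± 0.05, 0.07 ± 0.06 and -0.01 ± 0.05 (SE) in that order.

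The 5 members that regulate SREBP or carry sterol differed by less than 1.07-fold in the fit. Of the 5, 0 were called by edgeR, DESeq2 or limma-voom, against 12.2% of all genes tested by edgeR. At an unadjusted p under 0.05 edgeR had 1 of the 5, against 23.2% of all genes tested. A list of 5 genes is too short to tell these counts from those shares. Srebf2, the SREBP that mainly drives sterol synthesis, had 239 and 239 CPM in the Dnm3os libraries, against 236 and 236 CPM in the empty vector libraries (log2 fold change 0.02 ± 0.03 SE, adjusted p = 0.836 by edgeR). Srebf1, whose products mainly drive fatty acid synthesis, had 173 and 178 CPM in the Dnm3os libraries, against 179 and 181 CPM in the empty vector libraries (log2 fold change -0.04 ± 0.03 SE, adjusted p = 0.540 by edgeR). Its pair of RefSeq transcripts had nearly equal reads, for example 6090 and 6083 in Dnm3os library 2, so the forms from different starts cannot be told apart in these counts. RNA levels say nothing on how much SREBP protein was cut.

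Insig1, the anchor that retains SREBP and is itself an SREBP target, had 115 and 112 CPM in the Dnm3os libraries, against 115 and 119 CPM in the empty vector libraries (adjusted p = 0.537 by edgeR). Scap, the sterol-sensing escort, had 82.3 and 86.8 CPM in the Dnm3os libraries, against 79.4 and 79.4 CPM in the empty vector libraries (log2 fold change 0.09 ± 0.04 SE, adjusted p = 0.155 by edgeR). Insig1 overlapped between the groups, and Scap did not. Stard4, a soluble sterol carrier and SREBP target, had 58.8 and 57.2 CPM in the Dnm3os libraries, against 54.9 and 53.9 CPM in the empty vector libraries (adjusted p = 0.220 by edgeR).

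In the fatty acid arm Elovl6 rose, 0 of the 7 genes fell and 6 missed the threshold. The share called was 14.3%, near the 12.2% of all genes tested. The median log2 fold change was -0.0061. At an unadjusted p under 0.05 edgeR had 2 of the 7 genes, Elovl6 higher and Fasn lower, against 23.2% of all genes tested. Neither DESeq2 nor limma-voom called any lower, with 0 each. The median lay between -0.017 and 0.0084 under the alternatives. It was above 0 only without Dnm3os library 2, so its sign changed on leaving out 1 library. Groups did not overlap for 3 of the 7 genes, or 42.9%, against 51.2% of all genes tested.

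Fasn, the fatty acid synthase, had 399 and 420 CPM in the Dnm3os libraries, against 424 and 441 CPM in the empty vector libraries. Both Dnm3os libraries were lower, but the distance between the groups was smaller than that within either group. Its log2 fold change was -0.08 ± 0.03 (SE), the most negative of the 30 members, and did not pass (adjusted p = 0.137 by edgeR). It was -0.04 without Dnm3os library 1, where Insig1 was the most negative at -0.06, and -0.05 without empty vector library 2.

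Acaca, the acetyl-CoA carboxylase that commits carbon to fatty acid, had 142 and 139 CPM in the Dnm3os libraries, against 141 and 141 CPM in the empty vector libraries (adjusted p = 0.947 by edgeR). Acly, which makes cytosolic acetyl-CoA from citrate for both routes, had 358 and 355 CPM in the Dnm3os libraries, against 335 and 361 CPM in the empty vector libraries (adjusted p = 0.624 by edgeR). Acss2 had 17.7 and 18.7 CPM in the Dnm3os libraries, against 17.1 and 16.3 CPM in the empty vector libraries (adjusted p = 0.327 by edgeR). Acaca and Acly overlapped between the groups, and Acss2 did not.

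The desaturases that place the double bond of oleate showed no call. Scd1 had 278 and 283 CPM in the Dnm3os libraries, against 282 and 290 CPM in the empty vector libraries (log2 fold change -0.03 ± 0.03 SE, adjusted p = 0.693 by edgeR). Scd2 had 1343 and 1326 CPM in the Dnm3os libraries, against 1338 and 1346 CPM in the empty vector libraries (log2 fold change -0.01 ± 0.02 SE, adjusted p = 0.895 by edgeR). The groups overlapped in both genes. They belong to a family of similar neighbouring genes, so reads may be shared between them, and their values are uncertain to that extent.

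**Figure D3:**
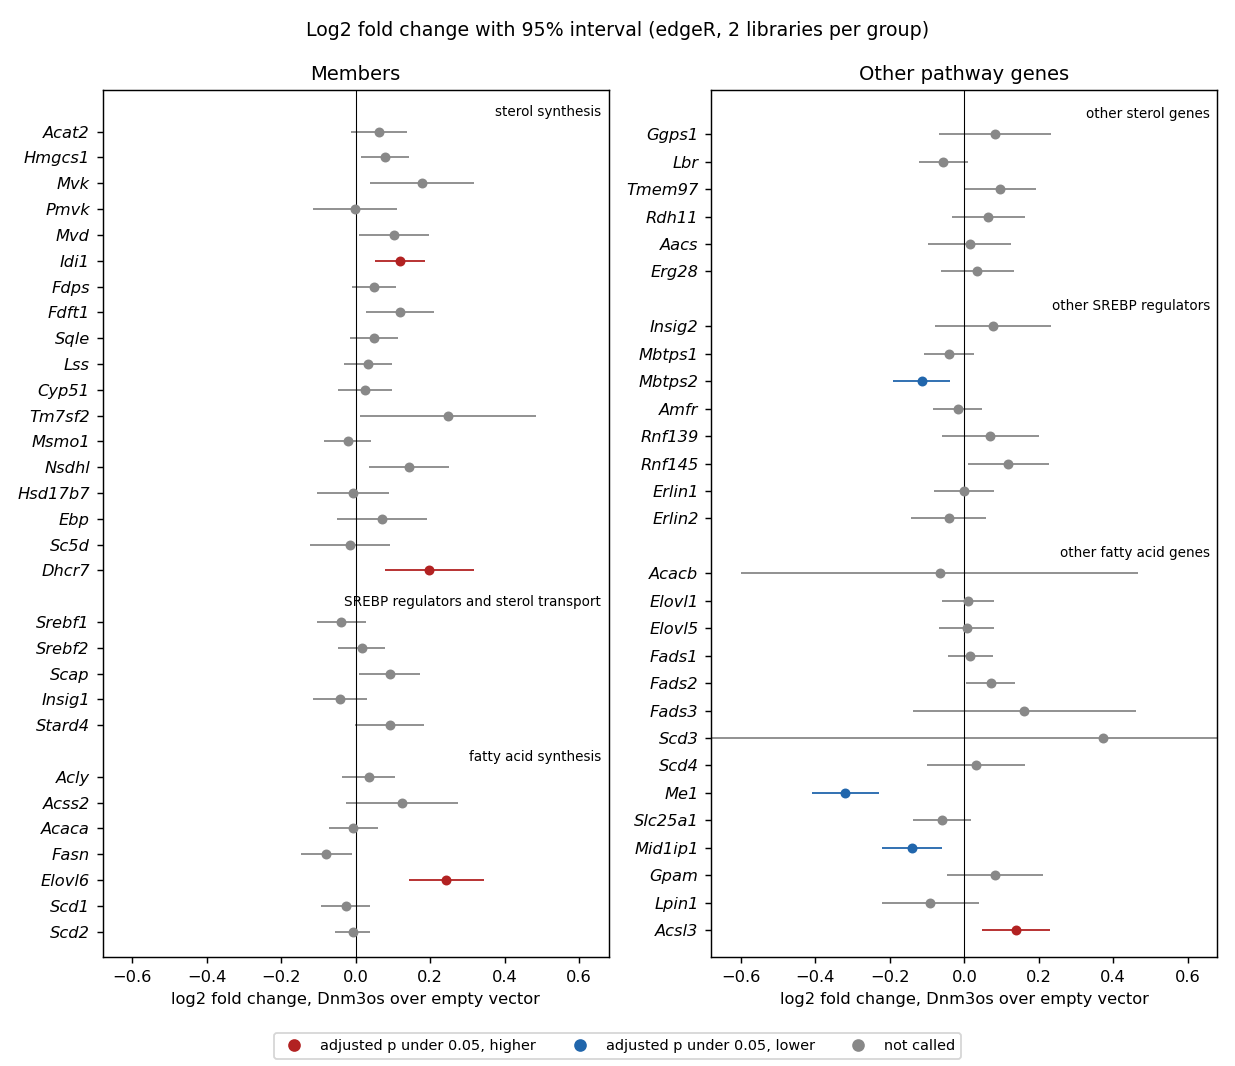
Log2 fold change of Dnm3os over empty vector with its 95% interval, for the 30 members on the left and 28 other pathway genes on the right. Idi1, Dhcr7 and Elovl6 are the members called higher, and the interval of Scd3 runs past the axis, from 0.516 to 3.25-fold.

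The depth allowed small differences between these libraries to be bounded. Like the p-values, the intervals measure only the spread between these libraries, which may be technical. For 28 of the 30 members the whole 95% interval of the fit lay within 1.25-fold in either direction, against 65.2% of all genes tested and 86.7% of the 9675 genes within the members' range of mean CPM. The exceptions were Tm7sf2, whose interval reached 1.40-fold, and Elovl6, whose interval reached 1.27-fold. The lowest bound of any member was that of Fasn, at 0.904 of the empty vector level.

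The sums below add CPM without scaling by transcript length, so genes with long transcripts weigh more in them and in the ratio. Summed over the arm, sterol genes had 1954 and 1971 CPM in the Dnm3os libraries, against 1874 and 1898 CPM in the empty vector libraries. Fatty acid genes summed to 2589 and 2598 CPM in the Dnm3os libraries, against 2583 and 2640 CPM in the empty vector libraries. The sterol sums did not overlap between the groups and the fatty acid sums did. The 5 regulators summed to 668 and 673 CPM in the Dnm3os libraries, against 665 and 670 CPM in the empty vector libraries. The sterol sum over the fatty acid sum, a ratio free of the library scaling, was 0.755 and 0.759 in the Dnm3os libraries, against 0.726 and 0.719 in the empty vector libraries. With Scd2 left out of the fatty acid arm the ratio was 1.57 and 1.55 in the Dnm3os libraries, against 1.51 and 1.47 in the empty vector libraries. The ratio was higher in both Dnm3os libraries in either form, with means of 0.757 ± 0.00271 in Dnm3os and 0.722 ± 0.00470 in empty vector cells with Scd2 kept (SD, n = 2 each), and was not tested.

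**Figure D4:**
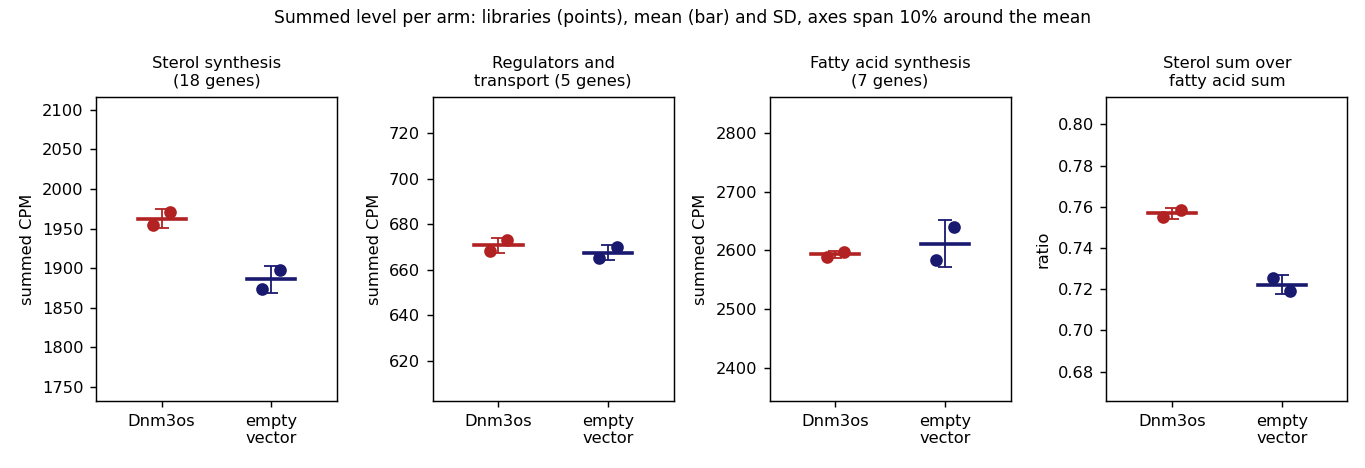
Summed CPM of each arm, and the ratio of the sterol to the fatty acid sum, in each library (points) with the group mean and SD over 2 libraries, on axes that do not start at 0. The sterol sum and the ratio are separated between Dnm3os and empty vector libraries, and the sums of the regulators and of the fatty acid arm overlap.

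Of 30 other genes of these routes, 28 could be tested, and 1 rose, 3 fell and 24 did not pass, or 14.3% called, a share near the 12.2% of all genes tested. Thrsp, a regulator of fat synthesis, had 0 reads in all libraries, and Mlxipl, a carbohydrate-responsive transcription factor, had 1 read in empty vector library 1 and 0 in the others. Me1, the malic enzyme that supplies NADPH for fatty acid synthesis, had 55.9 and 58.0 CPM in the Dnm3os libraries, against 70.0 and 72.3 CPM in the empty vector libraries. Both Dnm3os libraries were lower by more than the spread within a group. Me1 fell by 0.32 ± 0.04 (SE) on the log2 scale, or 1.25-fold (adjusted p = 9.36e-06 by edgeR), and was called under all 14 alternatives. It exceeded in size every change among the 30 members.

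Mid1ip1, which promotes the polymerisation of acetyl-CoA carboxylase, had 82.1 and 87.2 CPM in the Dnm3os libraries, against 94.2 and 92.6 CPM in the empty vector libraries. It fell by 0.14 ± 0.04 (SE) on the log2 scale (adjusted p = 0.0177 by edgeR), and was lost by DESeq2 and without Dnm3os library 1. Mbtps2, the protease that makes the final cut of SREBP, had 91.2 and 94.7 CPM in the Dnm3os libraries, against 101.8 and 99.5 CPM in the empty vector libraries. It fell by 0.11 ± 0.04 (SE) on the log2 scale at adjusted p = 0.0439 by edgeR, near the threshold, and was called under 7 of 14 alternatives. Acsl3, a ligase that activates long-chain fatty acids, had 78.5 and 73.0 CPM in the Dnm3os libraries, against 67.1 and 70.5 CPM in the empty vector libraries. It rose by a log2 fold change of 0.14 ± 0.04 (SE; adjusted p = 0.0412 by edgeR) and was called under 8 of 14 alternatives, with a log2 fold change of 0.08 without Dnm3os library 1. The libraries without which Mbtps2 and Acsl3 were both lost were empty vector library 1, Dnm3os library 1 and Dnm3os library 2.

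The other fatty acid desaturases and elongases were not called. Fads1 had 442 and 449 CPM in the Dnm3os libraries, against 441 and 440 CPM in the empty vector libraries (adjusted p = 0.827 by edgeR), and Fads2 had 290 and 299.8 CPM in the Dnm3os libraries, against 283 and 278 CPM in the empty vector libraries (adjusted p = 0.172 by edgeR). Scd3, another member of the desaturase family, stood apart in a single library, with 110.1 and 68.7 CPM in Dnm3os libraries 1 and 2, against 68.3 and 69.1 CPM in the empty vector libraries. Its group difference did not pass (adjusted p = 0.667 by edgeR), and neither Scd1 nor Scd2 was raised in Dnm3os library 1. Fads1, Fads2 and Scd3 were named after their values were seen.

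**Figure D5:**
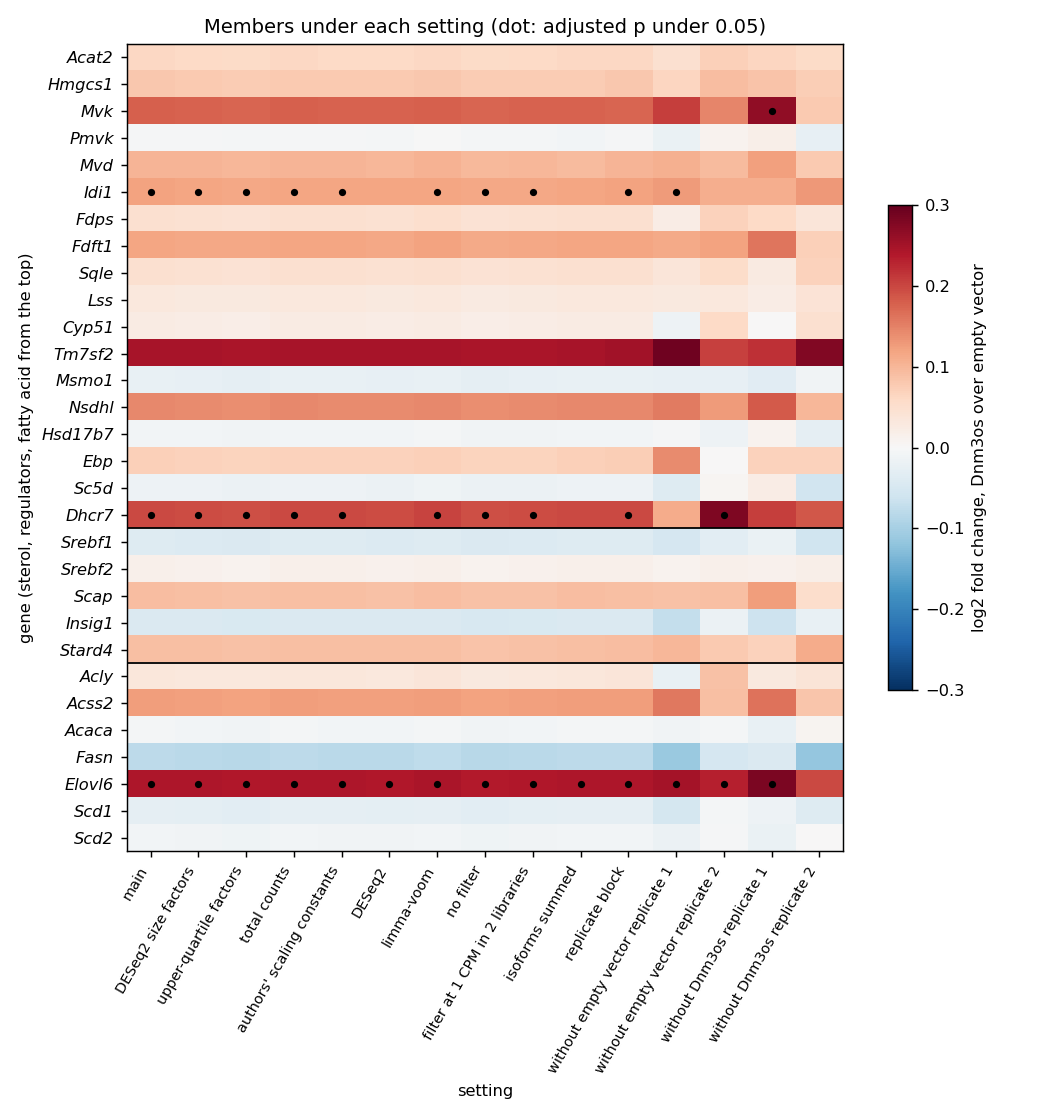
Log2 fold change of the 30 members (rows) as reported (first column) and under 14 alternative settings, in colour, with a dot where the adjusted p was under 0.05. Elovl6 was called in all columns but the last, and Idi1 and Dhcr7 in 9 of the 14 alternatives each.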

How the data were processed

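Poly(A) RNA of 2 Dnm3os and 2 empty vector libraries was sequenced on a HiSeq 2500, per the labels' protocols. The submitters' processing notes name TopHat, Bowtie2, DESeq2 and the build mm9; the read counter, annotation and strandedness were not given in the sources used here, so reads of overlapping genes may be mixed. Per the file headers, the authors deposited raw counts per RefSeq transcript (35786), and a normalized column. That deposited column is a scaled signal, the raw count times 1 constant per library, used here only for those constants.

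Transcripts were named from RefSeq (35499) and GENCODE M21 (178) tables; the 109 unnamed ones, with 0.246 to 0.276% of counts, were dropped. Where a gene had several transcripts, as 9 members did, the one with most reads was kept. Main test: edgeR 4.0.16 in R 4.3.3, with filterByExpr, TMM factors of 0.997 to 1.003, and a robust glmQLFit; 13136 genes were tested. SEs are the absolute log2 fold change divided by the root of F, and 95% intervals use the fitted degrees of freedom. The fit was tested on simulated data. Alternatives included DESeq2 1.42.0 and voom of limma 3.58.1. Named genes were all members, the called genes among 30 other pathway genes (up to 6) and Dnm3os. Members, lists and alternatives were chosen with earlier results of these data known. Same-numbered libraries deviated from their group means in opposite ways (correlation -0.203 over 9957 genes) and the labels name no shared batch, so the numbers were not taken as pairs.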

Additional observations from a re-analysis of the deposited data

How the results depend on the processing

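The fitted change kept its sign under all 14 alternatives for 23 of the 30 members; the other 7 changed sign 9 times, each time on leaving out 1 library. With 1 library left out, log2 fold changes ran from -0.025 to 0.017 for Pmvk, -0.0145 to 0.060 for Cyp51, -0.028 to 0.011 for Hsd17b7, -0.056 to 0.023 for Sc5d, -0.023 to 0.089 for Acly, -0.022 to 0.0084 for Acaca and -0.019 to 0.0009 for Scd2. DESeq2 called 1 member higher (0 of the sterol arm), 0 other pathway genes higher and 1 lower, and 398 higher and 359 lower of all genes. With isoforms summed 1 member was higher, 0 of the sterol arm and 0 other pathway genes, and limma-voom called 0 other pathway genes higher. Transcripts of a gene can share reads, as those of Mvd do, so these sums can count a read more than once. When 1 library was left out and the lone library was assumed to vary like the others, members higher numbered 0 to 2, sterol arm genes 0 to 1, fatty acid genes 0 to 1, other pathway genes higher 0 to 2 and lower 1 to 3, and all genes 434 to 802 higher and 372 to 784 lower; Dnm3os library 2 was the one without which no member was called. Members lower numbered 0 in every setting run. A replicate block gave 3 members higher and 0 lower, 1 other pathway gene higher and 2 lower, and 825 and 751 genes in all; Mbtps2 was lost (adjusted p = 0.0632 by edgeR). The crossed pairing, added after the data were seen, called 6 members higher, 5 of them in the sterol arm, and 1058 genes higher and 949 lower in all. No scaling moved the median of all genes by over 0.1. Depth limited Tm7sf2 most, at 183 to 220 reads a library.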
